A study of Mus musculus with 9 samples.

Results

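Myosin light chains are the small subunits that sit on the neck of the myosin heavy chain, and 7 genes of this family were followed here: Myl1, Mylpf, Myl2, Myl3, Myl4, Myl6 and Myl6b. They were chosen by symbol, and all 7 were found among the 14300 protein-coding genes listed in both deposited tables. The RNA came from tibialis anterior, a fast muscle at the front of the lower leg, of male mice of the C57BL/6J strain. After poly(A) selection, 3 groups of 3 libraries were sequenced: control mice, mice without testes (ORX, orchiectomised) and mice without testes that received dihydrotestosterone (ORX+DHT). All were sampled 4 weeks after treatment. The labels give the strain as the genotype, and the age of the mice and the hormone dose are not given in the sources used here. The replicates are labelled as biological, with no mention of the animals behind them, so p-values measure the spread between these libraries.

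Each muscle myosin carries an essential and a regulatory light chain on each of its heads, which stiffen the lever arm and tune the speed and calcium sensitivity of contraction. Fast fibres use Myl1 (essential) and Mylpf (regulatory), while slow fibres and the heart ventricle use Myl3 (essential) and Myl2 (regulatory). Myl4 is the essential chain of the embryonic and atrial myosins. Myl6 is the essential chain of smooth muscle and non-muscle myosins, and Myl6b is a related chain of slow and non-muscle myosins. Dihydrotestosterone activates the androgen receptor, a transcription factor present in muscle fibres and in the connective tissue cells around them.

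The libraries held 1340209 to 1682235 reads over the listed genes, and values are normalised counts with all 9 libraries on 1 scale. Myh4, the heavy chain of the fastest fibres, lay between 72361 and 100467 normalised counts in the 9 libraries, and Myh7, the slow heavy chain, between 0.967 and 11.8. Control replicate 1 stood apart from the other 8 libraries. Genes whose main transcript is shorter than 1 kb lay at a median of 0.86 log2 units above the other libraries there, and those of 4 kb and over at -0.34. The same medians in the other 8 libraries lay between -0.11 and 0.07. All 7 light chains have short main transcripts, of 665 to 1026 bases. Relative to the median of the other libraries, control replicate 1 was higher by 0.98 (log2) for Myl1, 1.13 for Mylpf, 1.06 for Myl3, 0.79 for Myl6 and 0.74 for Myl6b, but by only 0.10 for Myl4, and Myl2 was at -0.10. Tested members are therefore compared with the controls both with and without that library.

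**Figure D1:**
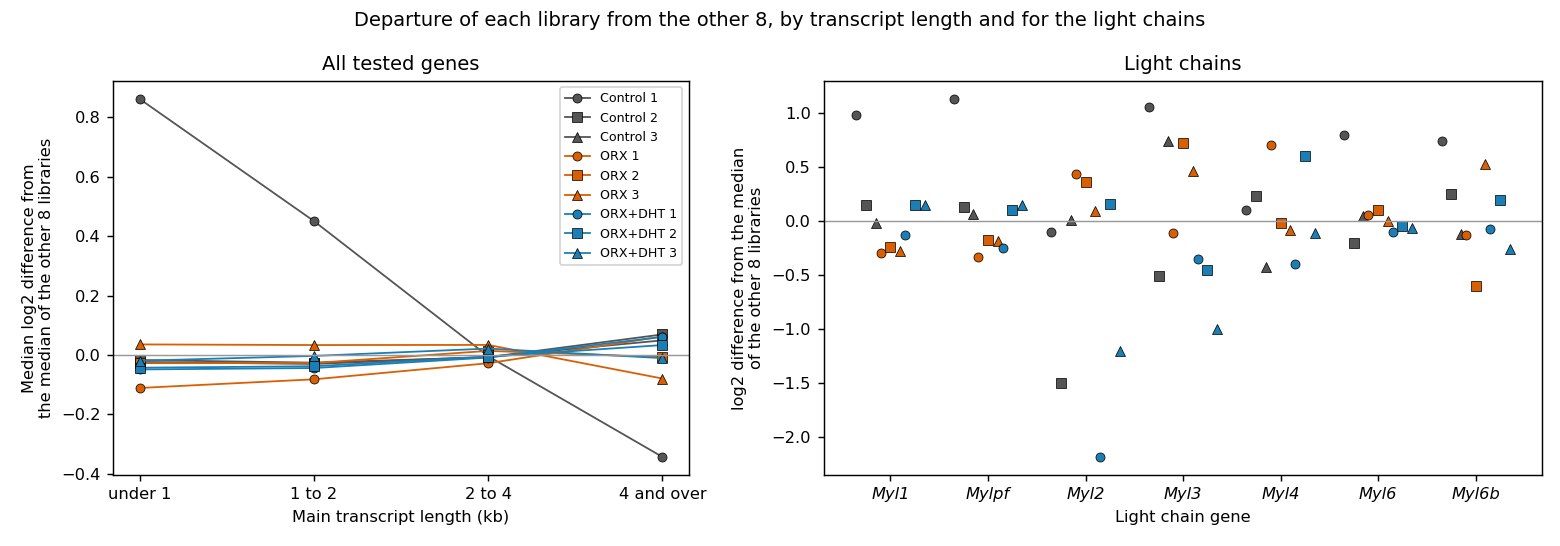
Left, the median log2 difference of each library from the median of the other 8, for genes grouped by main transcript length in kb (1 line per library). Right, the same difference for each light chain, 1 marker per library with the colours and shapes of the left panel. Control replicate 1 (grey circles) falls from 0.86 to -0.34 across the length groups, and it is the highest of the 9 libraries for Myl1, Mylpf, Myl3, Myl6 and Myl6b.

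The fast pair dominated the family. Per kb of main transcript, Myl1 and Mylpf together made up between 98.6% and 99.2% of the summed light chain level in every library. Mylpf had a mean of 18505 normalised counts per kb over the 9 libraries and ranked between 3 and 6 among 14253 genes ordered per kb. Myl1 had a mean of 17175 per kb and ranked between 5 and 7. Mylpf was above Myl1 in 8 of 9 libraries, but by a mean ratio of only 1.08, and their ranges overlapped. Next came Myl6 at 198 per kb and Myl3 at 146 per kb, with overlapping ranges, and the level of Myl1 was 86.8 times that of Myl6. The other 3 members were near the limit of detection: Myl6b at 11.0, Myl4 at 10.9 and Myl2 at 7.45 normalised counts per kb, with ranges that overlapped between neighbours in this order. The reads behind them numbered 8 to 18 per library for Myl6b, 7 to 16 for Myl4 and 1 to 12 for Myl2.

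How far these levels can be compared depends on how uniquely reads can be placed. Of the 50-base words in the main transcript, 53.2% of those of Myl6 and 32.1% of those of Myl1 also occur in annotated transcripts of another gene, in the case of Myl1 the pseudogene Mylf-ps. The levels of Myl6 and Myl1 are therefore uncertain, since some of their reads could also be placed in another gene. Whether such reads were dropped or counted was not tested. For Mylpf, Myl3 and Myl4 the share was 0%, for Myl2 2.14% and for Myl6b 0.921%. Exons of other genes overlapped at most 4.65% of a member's exon bases, which was the case of Myl3 and the opposite-strand gene Pth1r. By comparison, Tnnc2, the calcium-binding troponin of fast fibres, has 74% of its exon bases in exons of Ube2c on the opposite strand. It was listed at 1.11 to 4.91 normalised counts while its partner Tnnt3 had group means of 24827 to 34285. Whether overlap set the value of Tnnc2 was not tested.

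The members lie on 6 chromosomes (GRCm38, GENCODE M21). Myl1 (ENSMUSG00000061816) is on the minus strand at chr1:66924295-66945404, and Mylpf (ENSMUSG00000030672) on the plus strand at chr7:127208890-127214298. The slow genes Myl2 (ENSMUSG00000013936) and Myl3 (ENSMUSG00000059741) are on the plus strand at chr5:122100951-122113472 and chr9:110741861-110769798. Myl4 (ENSMUSG00000061086) is on the plus strand at chr11:104550663-104595753. Myl6 (ENSMUSG00000090841) at chr10:128490860-128494145 and Myl6b (ENSMUSG00000039824) at chr10:128494157-128498685 are neighbours on the minus strand, with 11 bases between them.

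The sequences just upstream of Myl1, Mylpf and Myl3 are shown because Myl1 and Mylpf varied together across libraries and Myl3 had the one called change. Each run holds the 250 bases before the RefSeq start (GRCm38.p6), read 5′ to 3′ on the gene's own strand: chr1:66945057-66945306 (minus) for Myl1, chr7:127211358-127211607 (plus) for Mylpf and chr9:110763428-110763677 (plus) for Myl3. Capitals mark every match to the motifs listed after the sequences.
Myl1: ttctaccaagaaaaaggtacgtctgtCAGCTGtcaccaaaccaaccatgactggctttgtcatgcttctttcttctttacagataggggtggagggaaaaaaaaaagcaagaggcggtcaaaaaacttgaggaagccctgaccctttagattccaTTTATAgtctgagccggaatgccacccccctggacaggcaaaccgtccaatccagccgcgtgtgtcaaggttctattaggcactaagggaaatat
Mylpf: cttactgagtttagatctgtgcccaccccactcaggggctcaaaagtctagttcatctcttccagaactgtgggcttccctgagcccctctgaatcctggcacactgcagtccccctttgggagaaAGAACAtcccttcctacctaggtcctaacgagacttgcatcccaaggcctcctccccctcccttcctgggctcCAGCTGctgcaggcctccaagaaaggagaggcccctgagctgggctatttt
Myl3: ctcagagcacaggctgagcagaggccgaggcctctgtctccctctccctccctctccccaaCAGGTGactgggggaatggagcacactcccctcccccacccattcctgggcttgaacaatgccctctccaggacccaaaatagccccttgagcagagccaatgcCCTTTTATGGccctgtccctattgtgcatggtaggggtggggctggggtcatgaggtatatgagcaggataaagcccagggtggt
The motifs searched were these, on both strands: the E-box CANNTG bound by myogenic factors, the androgen receptor half-site AGAACA, the TATA box TATAAA, the CArG box of serum response factor, and the MEF2 site written as CTA and TAG separated by 4 bases of any kind. All 3 windows hold 1 E-box, as do 66.2% of 32851 RefSeq promoter windows of the same length. It lies 224 to 219 bases before the start in Myl1, 51 to 46 in Mylpf and 189 to 184 in Myl3. Mylpf also holds 1 androgen receptor half-site, 124 to 119 bases before the start, a motif present in 16.1% of windows. Myl1 holds a TATA box match on the opposite strand 95 to 90 bases before the start (12.4% of windows), and Myl3 a CArG box 85 to 76 bases before the start (1.47% of windows). No MEF2 match lies in any of the members' windows, and 3.2% of all windows hold one. In the windows printed, no match overlaps another. Among the other members, Myl4 has 1 androgen receptor half-site match and the second RefSeq start of Myl6 has 1 CArG box. The second RefSeq start of Myl2 has a TATA box match. E-boxes lie before both starts of Myl2, the first start of Myl6 and the start of Myl6b.

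**Figure D2:**
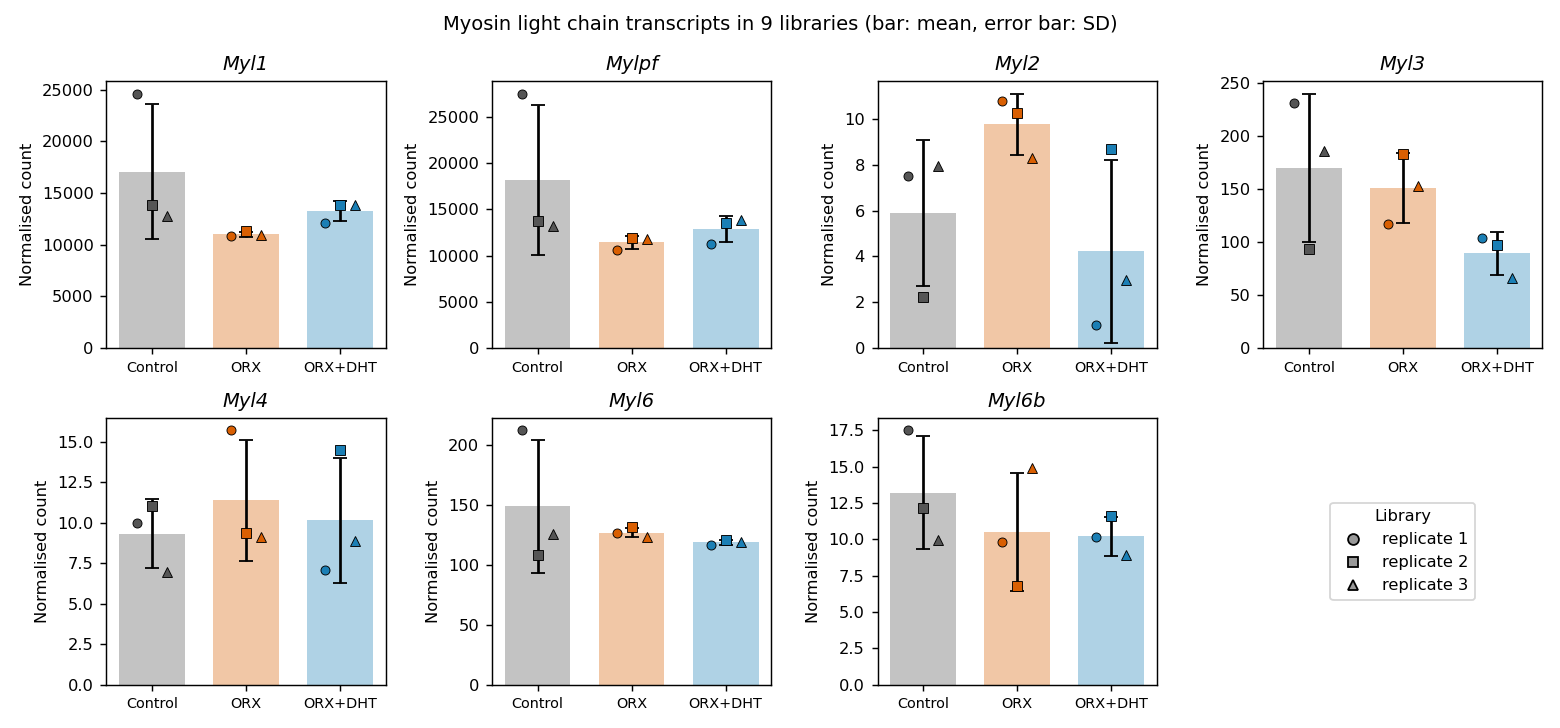
Normalised counts of the 7 light chains (vertical axis, from 0, a different scale in each panel) in control, ORX and ORX+DHT muscle. Bars are means of 3 libraries, error bars are SD and markers are single libraries. Control replicate 1 (circle) is the highest control for Myl1, Mylpf, Myl3, Myl6 and Myl6b, and the 3 ORX+DHT libraries of Myl3 lie below the 3 ORX libraries.

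After orchiectomy both fast chains, Myl1 and Mylpf, were lower in every ORX library than in any control. The slow chain Myl3 was lower in every ORX+DHT library than in any ORX library, but not than in every control. Only the fall of Myl3 passed the test, which was limma with p-values adjusted over all genes tested and a threshold of 0.05. Genes with a mean under 10 normalised counts were not tested, which left out Myl2 throughout and Myl4 in the last comparison. ORX against control called 0 of 6 tested members with limma, where 0.0579% of 8631 genes were called. At an unadjusted p under 0.05 the count was 2 (Myl1 and Mylpf), and edgeR and DESeq2 called 0. The groups did not overlap for 2 of the 6, against 14.3% of all genes. ORX+DHT against ORX called 1 of 6, the lower Myl3, against 4.08% of 8770 genes in either direction and 1.7% called and lower. Groups did not overlap for 3 of these 6 (Myl1, Myl3 and Myl6), against 19.5% of all genes. ORX+DHT against control called 0 of 5, with 1 at an unadjusted p under 0.05 (Myl3) and 0 by edgeR and DESeq2, where 0.0349% of 8595 genes were called. No member separated those groups, against 14% of genes. The ORX libraries are shared by the first 2 comparisons, the controls by the first and the last, and the ORX+DHT libraries by the last 2.

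**Figure D3:**
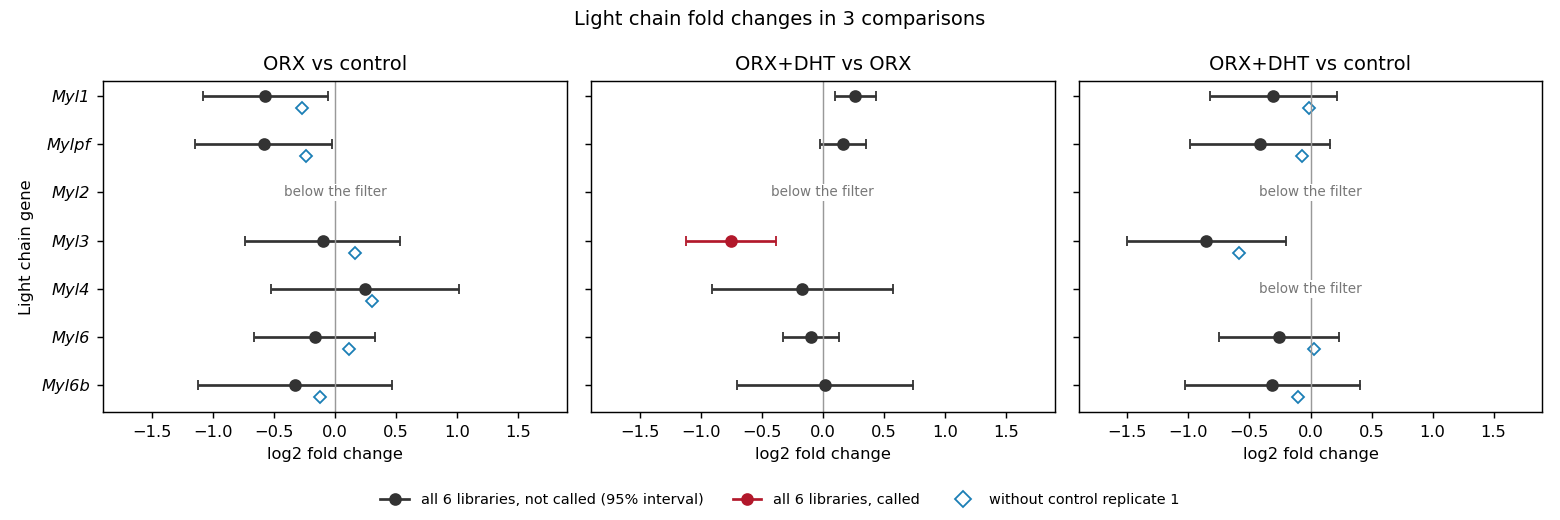
Log2 fold change of each light chain in 3 comparisons, with its 95% interval. Filled circles use all 6 libraries (red: called by limma), and open diamonds leave out control replicate 1. Myl3 in ORX+DHT against ORX, at -0.75, is the 1 value called, and the values of Myl1 and Mylpf against control move towards 0 without control replicate 1.

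Myl1, the fast essential chain, had 24617, 13842 and 12813 normalised counts in control replicates 1 to 3. The ORX libraries had 10811, 11299.9 and 10957, and the ORX+DHT libraries 12143, 13823 and 13816.5. Every ORX library was thus below every library of the other 2 groups, and the ORX group was the tightest, at 11023 ± 251 (SD, n = 3) against 17090.5 ± 6538 in controls and 13261 ± 968 in ORX+DHT. ORX against control gave a log2 fold change of -0.57 (SE 0.23), which limma did not call (adjusted p = 0.675). Without control replicate 1 the log2 fold change was -0.27 (adjusted p = 0.216 with limma), and the ORX libraries still lay below both remaining controls. Quantile normalisation of all 6 libraries lowered the size of this difference to -0.14 (limma adjusted p = 0.869). ORX+DHT against ORX gave 0.26 (SE 0.08), which did not pass the threshold (limma, adjusted p = 0.0789). That value passed under robust variance moderation (adjusted p = 0.00924) and with the transcript length trend removed (adjusted p = 0.0429), both with limma. It did not pass with all 9 libraries in 1 limma fit (adjusted p = 0.819), without any 1 library (adjusted p = 0.0554 to 0.279), with edgeR (0.075) or with DESeq2 (0.119), and quantile normalisation lowered it to 0.10 (limma adjusted p = 0.389). ORX+DHT and control overlapped, at -0.30 (SE 0.24, limma adjusted p = 0.785) and at -0.01 without control replicate 1.

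Mylpf, the fast regulatory chain and the target of the muscle light chain kinases, had 27521, 13768 and 13253 normalised counts in the controls. It had 10660.2, 11887.5 and 11809.7 in ORX and 11272, 13515.5 and 13889 in ORX+DHT. ORX was again below every control, but it overlapped with ORX+DHT, whose first replicate lay within the ORX range. For ORX against control, log2 fold changes were -0.58 (SE 0.26, adjusted p = 0.684 with limma) with all controls and -0.24 without replicate 1 (adjusted p = 0.313). With all controls and quantile normalisation the value was -0.21 (limma adjusted p = 0.81). ORX+DHT against ORX gave 0.17 (SE 0.09, 95% interval -0.02 to 0.36, limma adjusted p = 0.429), and ORX+DHT against control -0.42 (SE 0.26, adjusted p = 0.746) or -0.07 without control replicate 1. In bulk muscle RNA, fewer cells of a type and less RNA per cell cannot be told apart, here and in every result below.

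Both fast chains kept a nearly fixed ratio. Mylpf was between 0.973 and 1.17 times Myl1 per kb in all 9 libraries, with group means of 1.10 ± 0.07 (SD, n = 3) for control, 1.09 ± 0.05 for ORX libraries and 1.02 ± 0.04 after DHT. Across the 9 libraries, log2 levels of the pair had a Pearson r of 0.984 (Spearman's rho 0.9), and r was 0.9 over the 8 libraries without control replicate 1. These points share depth, length group and heavily expressed muscle mRNA, so the correlation is a description only. The next highest r was that of Mylpf with Myl6, 0.861, which turned to -0.43 without that library.

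Myl3, the slow essential chain, was the 1 member called in any comparison: it fell after DHT. It had 231, 94.0 and 186 normalised counts in control replicates 1 to 3, from 185, 85 and 187 reads. The ORX libraries had 117, 183 and 153 (119, 215 and 185 reads), and the ORX+DHT libraries 104, 97.6 and 66.2 (103, 101 and 67 reads). All ORX+DHT libraries lay below all ORX libraries, although the closest, 104 and 117, were near each other, and control replicate 2 lay among the ORX+DHT values. The control mean was 170 ± 69.8 (SD, n = 3), the ORX mean 151 ± 33.3 and the ORX+DHT mean 89.4 ± 20.4. ORX+DHT was at 0.593 times ORX, a log2 fold change of -0.75 (SE 0.17, 95% interval -1.12 to -0.39, limma adjusted p = 0.0166), and it ranked 240 among 8770 genes by p.

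The fall of Myl3 held its direction in all 19 alternative settings, from -0.93 to -0.55, and its call in 16 of them. The call was lost when 1 fit held all 9 libraries (limma adjusted p = 0.353), without ORX replicate 2 (-0.60, adjusted p = 0.126) and without ORX+DHT replicate 3 (-0.55, adjusted p = 0.0756). Count tests on the recovered reads called it with edgeR (adjusted p = 0.00935) and DESeq2 (adjusted p = 0.00986). ORX against control gave -0.10 (SE 0.29, limma adjusted p = 0.951), and 0.17 without control replicate 1. ORX+DHT against control gave -0.85 (SE 0.30), or -0.59 without control replicate 1, and neither was called by limma (adjusted p = 0.736 and 0.416).

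Myl2, the slow regulatory chain, was almost absent, with 7.49, 2.21 and 7.95 normalised counts in control, 10.8, 10.2 and 8.27 in ORX and 1.01, 8.70 and 2.96 in ORX+DHT. It rested on 16, 33 and 13 reads per group and stayed below the filter of a mean of 10 in all 3 comparisons. The 3 ORX values exceeded all controls, while the second ORX+DHT library lay within the ORX range. Fitted without the filter, ORX+DHT against ORX gave -1.35 (SE 0.50, limma adjusted p = 0.24 over 14675 genes). ORX against control gave 0.78 (SE 0.46, adjusted p = 0.783). The unadjusted limma p was 0.0148 for ORX+DHT against ORX and 0.11 for ORX against control. Neither difference was called, on few reads, and the part of depth in this was not tested.

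The slow share of each light chain pair followed from these values. Per kb, Myl3 made up 0.798%, 0.579% and 1.23% of Myl3 plus Myl1 in control, 0.917%, 1.37% and 1.18% in ORX, and 0.731%, 0.602% and 0.409% in ORX+DHT. The ORX+DHT shares (0.581 ± 0.162%, SD, n = 3) all lay below the ORX shares (1.16 ± 0.228%), and the controls (0.868 ± 0.330%) overlapped both. Control replicate 1, with a share of 0.798%, lay between the other controls on this ratio of transcripts of similar length. The share of Myl2 in Myl2 plus Mylpf was between 0.0603% and 0.0872% in ORX, between 0.0138% and 0.0516% in control and between 0.00775% and 0.0554% in ORX+DHT. The ORX range was above both others, on few reads, and no test was made of these shares.

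**Figure D4:**
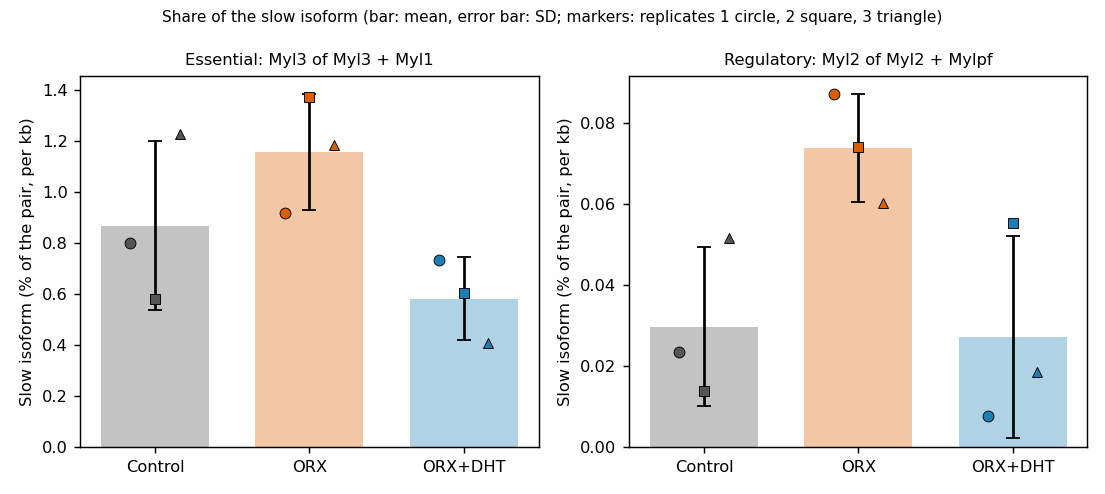
Share of the slow isoform within the essential pair (left, Myl3 of Myl3 plus Myl1) and the regulatory pair (right, Myl2 of Myl2 plus Mylpf), in percent of values per kb. Bars are means of 3 libraries, error bars SD and markers single libraries. In the left panel the 3 ORX+DHT libraries lie between 0.409% and 0.731%, all below the ORX libraries at 0.917% to 1.37%, and controls overlap both ranges.

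Myl4, the embryonic and atrial chain, had 9.99, 11.1 and 6.95 normalised counts in control, 15.7, 9.38 and 9.10 in ORX and 7.09, 14.5 and 8.89 in ORX+DHT. The 3 groups overlapped throughout. ORX against control was at 0.24 on the log2 scale (SE 0.35, limma adjusted p = 0.886), or 0.30 without control replicate 1 (adjusted p = 0.84), and ORX+DHT against ORX at -0.17 (SE 0.35, adjusted p = 0.884). Against control, ORX+DHT stayed below the filter, and the fit without it gave 0.08 (SE 0.38, limma adjusted p = 0.978).

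Myl6, the smooth muscle and non-muscle essential chain, had 212, 108 and 126 normalised counts in control, 127, 131 and 123 in ORX and 117, 121 and 120 in ORX+DHT. The ORX+DHT values were all just below the ORX values, a log2 fold change of -0.09 (SE 0.11, 95% interval -0.32 to 0.14, limma adjusted p = 0.769). ORX against control gave -0.17 (SE 0.23, adjusted p = 0.878), which turned to 0.12 without control replicate 1. ORX+DHT against control gave -0.26 (SE 0.22, limma adjusted p = 0.799) with all controls and 0.02 without that library. Myl6b had 17.5, 12.2 and 9.93 normalised counts in control, 9.82, 6.82 and 14.9 in ORX and 10.1, 11.6 and 8.89 in ORX+DHT, and the groups overlapped in every comparison. The log2 fold changes of Myl6b were -0.33 (SE 0.36) after orchiectomy, 0.02 (SE 0.34) for DHT given to ORX mice and -0.31 (SE 0.33) for ORX+DHT set against control, with limma adjusted p from 0.839 to 0.991. Without control replicate 1, the first was -0.12 and the last -0.10 (limma adjusted p = 0.947 and 0.961).

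The partners of the light chains in the sarcomere were taken from lists of genes. After DHT, 2 of 11 tested fast partners rose and 0 fell relative to ORX, with a median log2 fold change of -0.07 against 0.01 over all 8770 genes. The risers were Myh1, the heavy chain of type IIx fibres, at 0.47 (SE 0.10, limma adjusted p = 0.00755), and Tnni2, the fast inhibitory troponin, at 0.39 (SE 0.08, adjusted p = 0.0103). Myh4 was at -0.08 (SE 0.10, adjusted p = 0.767) and Myh2, the type IIa heavy chain, at -0.15 (SE 0.21, adjusted p = 0.812). Tnni2 had 8895, 9845 and 10417.5 normalised counts in ORX and 11856, 12694 and 13537 in ORX+DHT, without overlap. Myl1, at 0.26, lay between these called genes and the median of the list.

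Of the 9 slow partners of Myl3, 6 passed the filter. In the same comparison 1 was called higher and 0 lower, with 4 of the 6 values below 0 and a median of -0.09. The one that rose was Mybpc1, slow myosin-binding protein C, a gene that fast muscle also expresses, at 0.49 (SE 0.07, limma adjusted p = 0.000421). Its normalised counts were 4498, 4440.1 and 4205 in ORX and 5837, 6341 and 6306 in ORX+DHT. The slow troponin Tnnt1 was at -0.50 (SE 0.36, adjusted p = 0.577), on 4.94 to 13.7 normalised counts per library in those groups. Myoz2 went the other way, at 0.45 (SE 0.16, limma adjusted p = 0.157), on group means of 110 and 150. Tpm3, Atp2a2 and Casq2 lay at -0.13, -0.11 and -0.08 (limma adjusted p = 0.799 to 0.875). Myh7, Tnnc1 and Tnni1, the slow heavy chain and troponins that share fibres with Myl3 and Myl2, were below the filter. Myh7 had 11.8, 6.82 and 4.96 normalised counts in ORX and 3.04, 0.967 and 2.96 in ORX+DHT, so its groups did not overlap, at levels too low for the test. Tnnc1 had means of 4.73 ± 1.34 (SD, n = 3) and 2.63 ± 1.48 in these groups, and Tnni1 4.90 ± 3.43 and 2.61 ± 2.26. Tnnt1, Tnnc1, Tnni1, Myoz2, Tpm3, Atp2a2 and Casq2 were named after their values were seen.

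**Figure D5:**
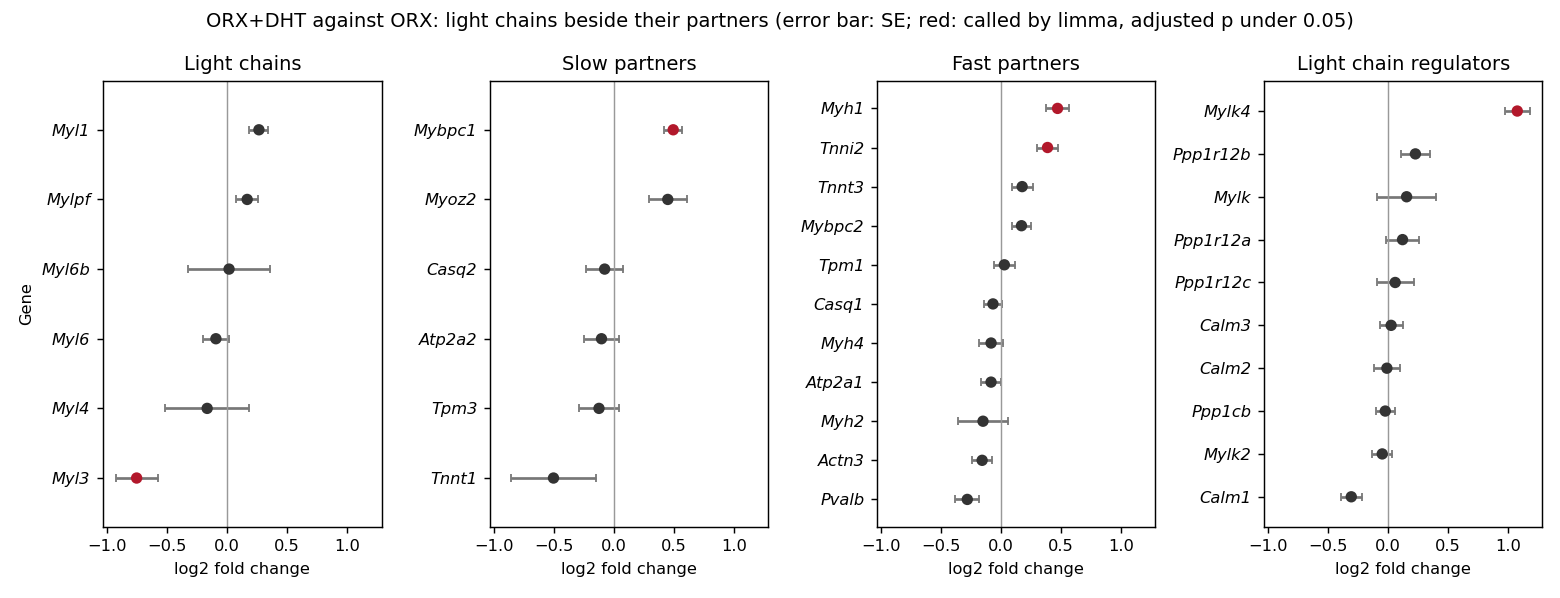
Log2 fold changes of ORX+DHT against ORX with their SE, for the 6 tested light chains and the tested genes of 3 lists: slow partners, fast partners and regulators of the light chains. Red marks genes called by limma. Myl3, at -0.75, is the 1 called gene below 0, and Mylk4, at 1.08, is the highest.

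Regulators of the light chains include the kinases that phosphorylate Mylpf and Myl2, the calmodulins that activate those kinases and the subunits of myosin phosphatase. Of 10 tested, 1 rose in ORX+DHT against ORX with limma and 0 fell (median 0.04), while edgeR called 2 and DESeq2 1. The riser was Mylk4, a kinase of the light chain kinase family, at 1.08 (SE 0.10, limma adjusted p = 2.89e-06). It had 2620, 2132 and 1921 normalised counts in ORX and 4971, 4101 and 4926 in ORX+DHT. Mylk2, the skeletal muscle light chain kinase, was at -0.05 (SE 0.08, adjusted p = 0.853). Mylpf, the substrate of Mylk2, was at 0.17 in the same comparison, as given above. Without control replicate 1, a setting added for the lists after the data were seen, Mylk4 was the 1 gene of the list called against the controls, lower in ORX mice and higher in ORX+DHT mice, and no light chain was called in either.

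The remaining lists concern the embryonic and non-muscle chains and fibre type control. Among developmental and denervation genes, the setting in which Myl4 is re-expressed, 0 of 6 tested were called in ORX+DHT against ORX, with 1 at an unadjusted p under 0.05 and 0 by edgeR and DESeq2. The most abundant were Actc1, the cardiac actin of immature fibres, at -0.39 (SE 0.24, limma adjusted p = 0.5), and Myod1, a myogenic factor, at 0.40 (SE 0.20, adjusted p = 0.368). Of 4 heavy chains that pair with Myl6, 0 were called, 2 had an unadjusted p under 0.05, and edgeR and DESeq2 called 0. Myh9 was at 0.37 (SE 0.12, limma adjusted p = 0.123) and Myh14 at 0.44 (SE 0.12, adjusted p = 0.0554). Of 2 tested regulatory chains of smooth and non-muscle myosin, 0 were called, both had an unadjusted p under 0.05, and edgeR and DESeq2 called 0. Myl12a was at -0.32 (SE 0.11, limma adjusted p = 0.135) and Myl9 at 0.35 (SE 0.17, adjusted p = 0.346). Reads of Myl12a may be confused with those of its close copy Myl12b, and how often this happened was not tested. Myl12b itself was listed with group means of 2.65 to 4.23 normalised counts.

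Of 11 tested fibre type regulators, 2 rose and 0 fell in ORX+DHT against ORX (median 0.05). Tbx15, a T-box factor of fast glycolytic fibres, was at 0.57 (SE 0.08, limma adjusted p = 0.00025), and Ppargc1a, a coactivator of mitochondrial genes in slow and oxidative fibres, at 0.60 (SE 0.13, adjusted p = 0.013). DESeq2 called 1 of the 11. Across all 7 lists, limma called 0 of 50 genes in ORX against control (4 at an unadjusted p under 0.05) and 0 of 48 in ORX+DHT against control (5 at an unadjusted p under 0.05). edgeR and DESeq2 called 0 in both.

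Genes whose level followed a member most closely over the 9 libraries were sought among 8630 genes. For Myl1 they were Eno3, the muscle enolase (Pearson r 0.988), Sh3bgr (0.986) and Pgam2, the muscle phosphoglycerate mutase (0.985), with Mylpf at rank 4, or 39 without control replicate 1. For Mylpf they were Tpm2, a tropomyosin (0.991), Pgam2 (0.99) and Chchd2 (0.99). The correlations of these genes with Myl1 and Mylpf were 0.908 to 0.926 without that library. For Myl3 they were Mmaa (0.933), Dnlz (0.926) and Cd59a (0.92), with 0.894 to 0.908 without that library. For Myl6 they were Rpl8 (0.981), Ptms (0.977) and Uqcrq (0.971), which dropped to 0.777, 0.727 and 0.559 without it. Myl4 went with Cep89 (0.948), Ptprg (0.926) and Slc25a44 (0.89), and Myl6b with Pmpcb (0.925), Tmem50b (0.922) and Aasdhppt (0.916), on few reads for both members. These are the highest correlations among all genes compared, over 9 points that share library, depth and the length pattern of control replicate 1.

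Marker genes of other cells were also called where Myl3 fell. Relative to ORX, 2 of 5 tested fibroblast markers fell after DHT with limma, Col1a1 at -1.18 (SE 0.11, adjusted p = 2.89e-06) and Lum at -1.79 (SE 0.18, adjusted p = 4.81e-06). With edgeR and with DESeq2, 3 of the 5 were called. Not called by limma were Col3a1 at -0.46 (SE 0.13, adjusted p = 0.0597), Dcn at -0.05 (SE 0.17, adjusted p = 0.933) and Pdgfra at 0.06 (SE 0.35, adjusted p = 0.966). Summed over the 5 markers, ORX libraries had 2876 to 3841 normalised counts, ORX+DHT libraries 1700 to 2388 and controls 1352 to 2729. The collagens Col1a1 and Col3a1 were the largest parts of these sums, with ORX means of 1682 and 1222. Of 3 tested tendon markers 1 fell, Fmod at -1.28 (SE 0.23, adjusted p = 0.00205), and the sums of all 5 were 446 to 733 in ORX, 308 to 377 in ORX+DHT and 329 to 430 in control. Muscle fibre markers went the other way: 3 of 5 rose with limma, Acta1 at 0.47 (SE 0.09), Des at 0.28 (SE 0.07) and Mb at 0.51 (SE 0.07), and 2 were called by edgeR and by DESeq2. Their sums were 87438 to 87752 in ORX, 103316 to 114322 in ORX+DHT and 100728 to 138629 in control. Whether any of these shifts plays a part in the fall of Myl3 or in the values of Myl1 was not tested. In ORX against control, where Myl1 and Mylpf were lower without passing the test, limma called 0 of 31 tested markers, 8 had an unadjusted p under 0.05, edgeR called 0 and DESeq2 2 (1 fibroblast and 1 tendon marker). All 5 muscle fibre markers were below 0 there, with Acta1 at -0.46 (SE 0.22, limma adjusted p = 0.695) and Mb at -0.43 (SE 0.17, adjusted p = 0.675). Their median was -0.32, and -0.22 without control replicate 1. Col1a1 was at 1.08 (SE 0.26, limma adjusted p = 0.294) and Fmod at 1.21 (SE 0.27, adjusted p = 0.265). The part of these values in those of Myl1 and Mylpf was not tested. For ORX+DHT against ORX, in the 7 other marker lists (smooth muscle, endothelial, macrophage, Schwann, adipocyte, erythroid and satellite cell), limma called 0 of 18 tested genes, 3 had an unadjusted p under 0.05, and edgeR and DESeq2 called 0. No marker of the 10 lists was at 0 in every library, and Myocd, a smooth muscle marker, was not in both tables.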

How the data were processed

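Poly(A) RNA of 9 muscle samples was sequenced with a strand-specific kit, per the labels' protocols. Per the submitters' processing notes, the tools were Trim Galore 0.6.7, HISAT2 2.2.1, featureCounts 2.0.1 and DESeq2 1.36.0, with build GRCm38. Whether counting used strand is not given in the sources used here. The authors deposited 2 tables of normalised counts (a signal: read counts divided by a library's scaling factor), one of control and ORX, one of ORX and ORX+DHT. Columns named Sham were taken as control, the one group without orchiectomy, by replicate number, and 0 columns were unused. Within each column 100% of values were whole multiples of 1 step (tolerance 0.01 reads), which gave back the reads.

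The first 2 comparisons were tested within their own table. ORX+DHT against control was tested after joining the 14300 shared genes under common median-of-ratios factors, the scale of all printed normalised counts. Genes whose mean was at least 10 entered a fit of limma 3.58.1 (R 4.3.3, mean-variance trend) to log2(value + 1). A gene was called at a Benjamini-Hochberg adjusted p under 0.05 over all genes tested. Fold changes on this scale understate those of low genes. In the order ORX against control, DHT within ORX and ORX+DHT against control, limma called 5, 358 and 3 genes. Run on the reads so recovered, the quasi-likelihood test of edgeR 4.0.16 called 6, 366 and 4, and DESeq2 1.42.0 called 28, 221 and 13. The fits were also run on simulated counts with the same dispersion for all genes and no length pattern. That run does not cover a library like control replicate 1.

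Values per kb use the main GENCODE M21 transcript, and promoters come from RefSeq (GRCm38.p6). The text names all 7 members, the called genes of 7 gene lists or else the 2 of highest mean, Myh1, Myh2, Myh4, Myh7, Mylk2 and Mylk4, and the 3 genes most correlated with each tested member. Tnnc2, Tnnt3, Tnnt1, Tnnc1, Tnni1, Myoz2, Tpm3, Atp2a2 and Casq2 were added after their values were seen. Members and lists were chosen with earlier results of these data known. In 10 lists of cell type markers, called genes are named, and Col3a1, Dcn and Pdgfra were added after their values were seen.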

Additional observations from a re-analysis of the deposited data

How the results depend on the processing

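Of 301 alternative values for the members' fold changes, 279 kept their direction and their side of the threshold, 14 changed sign, 5 became called and 3, all of Myl3 in ORX+DHT against ORX, lost the call. No value that changed sign was called, and the causes were not tested. In ORX against control, Myl3 and Myl6 turned to 0.17 and 0.17 with the length trend removed, a correction chosen after seeing the data. Leaving out 1 library, Myl3 ranged from -0.48 to 0.17 and Myl6 from -0.36 to 0.12. In ORX+DHT against ORX, Myl6b turned to -0.0041 with a pseudocount of 10 and to -0.059 with edgeR. Leaving out 1 library, it ranged from -0.23 to 0.28 and Myl4 from -0.43 to 0.070. In ORX+DHT against control, Myl6 turned to 0.050 with the length trend removed and ranged from -0.46 to 0.025.

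In ORX+DHT against ORX the members called numbered 1, but 2 under robust moderation or with the length trend removed, 0 with all 9 libraries in 1 fit, and 0 to 1 when 1 library was left out. With the replicate number as a block it was 3 (Myl1, adjusted p = 0.000763, and Mylpf, 0.0462, joined Myl3, all with limma), and 2 when the length trend was removed as well. Over all genes, 358 of 8770 were called in the main fit, 389 of 8770 under robust moderation and 571 of 8770 with the block. With all 9 libraries in 1 fit the count was 123 of 8631. Every library of this comparison correlated best with its own number (0.0611 to 0.151), but not every value passed 0.1. With 3 libraries per group such matches can also arise by chance, so they do not show that the numbers pair the libraries. Same numbers correlated at -0.165 to 0.06 in the other pairs of groups.

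Genes called in ORX against control numbered 5, but 16 with no filter, 23 with all 9 libraries in 1 fit, 28 with DESeq2, 22 with the length trend removed and 1 to 51 without 1 library (51 without control replicate 1). In ORX+DHT against ORX they numbered 358, but 123 with all 9 libraries, 571 with the block, 582 with block and length trend removed, 221 with DESeq2 and 223 to 350 without 1 library. In ORX+DHT against control they numbered 3, but 6 after quantile normalisation, 11 with all 9 libraries, 13 with DESeq2, 15 with the length trend removed and 0 to 66 without 1 library (66 without control replicate 1). Quantile normalisation moved the split in ORX+DHT against ORX from 209 higher of 358 to 161 of 327. The slow shares moved by less than 1 SD on normalised counts in place of values per kb. The mean share of Myl2 went from 0.0272% to 0.0131% in ORX+DHT without replicate 2 and from 0.0296% to 0.0186% in control without replicate 3. The low reads of Myl2, Myl4 and Myl6b limit what can be detected.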
